A study of Mus musculus with 35 samples.

Results

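NMuMG cells are a mouse mammary epithelial line that is widely used to follow the epithelial to mesenchymal transition. The comparison described here is the late step of the vehicle arm, from 96 h to 7 d. Its members are the 13078 genes, of 20261 in the table, with a mean of at least 10 normalized reads in the DMSO 96 h or the DMSO 7 d group. RNA was sequenced from wild-type NMuMG cells (strain label E9) kept for 24, 48, 72 or 96 h or 7 d with DMSO, the solvent control, or with a JNK inhibitor that the labels give as JNKi. Each of these 10 groups had 2 libraries, and 4 libraries enter the comparison. The labels' treatment protocol gives TGF-β at 2 ng/ml for time-course experiments, with fresh TGF-β and medium every 2 days. It does not name the DMSO and JNKi cells separately. The titles of all DMSO and JNKi libraries carry EMT TC, as those of the TGF-β time course do. In the sample annotation made for this report, 2 ng/ml was entered for each of these 10 groups. Their titles give no dose. No library of untreated cells stands beside the DMSO libraries, so time, medium changes, cell density and treatment cannot be told apart. The labels do not tie the 2 replicates of a group to separate cultures, and p values therefore reflect only the spread between these libraries, which may be technical.

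In the epithelial to mesenchymal transition, cells take apart E-cadherin junctions, build stress fibres and deposit matrix. TGF-β drives it through SMAD proteins together with kinase pathways that include JNK, and factors such as Zeb1, Zeb2 and Snai1 repress epithelial genes. TGF-β also halts the cell cycle of mammary epithelial cells. A late step can therefore hold genes that go on in the direction taken earlier and genes that turn back.

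Values are normalized reads per gene, given for replicate 1 and then replicate 2. Changes are differences between 7 d and 96 h of log2(value + 1), which understate the change of low genes. A gene passed the test at an adjusted p under 0.05 (limma, Benjamini-Hochberg over 13896 tested genes). The 96 h libraries held 42769937 and 32541716 recovered reads and the 7 d libraries 16652275 and 40932058, so the first 7 d library was the shallowest of the 4. At its depth, 15146 and 15198 genes were detected at 96 h and 17032 and 16785 at 7 d. A set of 504 olfactory and vomeronasal receptor genes with a mean under 1 had means per gene of 0.0796 and 0.0766 normalized reads at 96 h and 0.340 and 0.272 at 7 d. More genes thus gave a low signal at 7 d, and the part of this in the results on low genes was not tested.

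The late step was wide in both directions and lopsided in size. Of the 13078 members, 2782 were higher and 2148 were lower at 7 d, where 36.5% of all tested genes passed the test, 21.0% as higher and 15.5% as lower. The shares of 21.0% and 15.5% stand beside every count of a gene list below. Changes of at least 2-fold were held by 939 members that rose and 74 that fell, beside 7.74% and 0.561% of tested genes. The median change over all members was 0.04. Of the 939 rises, 361 lay in low genes: 706 members had a 96 h mean under 10 and entered only through their 7 d level, and 362 of these rose. Among 9753 members with a group mean of at least 200, 1965 rose and 2054 fell, 289 and 31 of them by at least 2-fold. Both 7 d libraries lay on the same side of both 96 h libraries for 2780 of the 2782 genes that rose and 2145 of the 2148 that fell, beside 70.4% of tested genes. In bulk samples, a change in the share of cells of a type and a change in RNA per cell cannot be told apart. The counts depended on single libraries, being 1480 and 1072 without the second 7 d library and 1733 and 1283 without the second 96 h library.

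**Figure D1:**
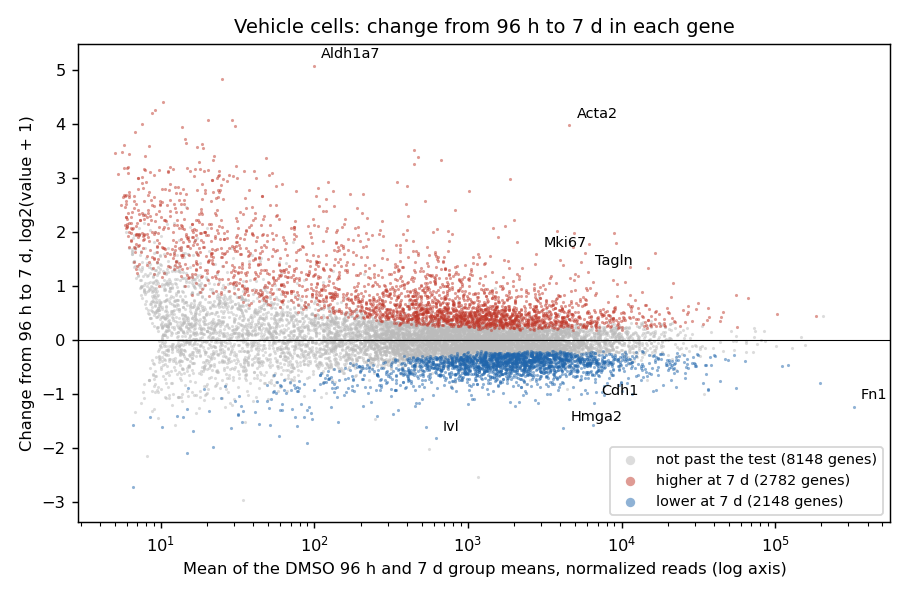
Each point is 1 of the 13078 genes, with the mean of its 96 h and 7 d group means on a log axis and its change from 96 h to 7 d on the log2(value + 1) scale. Red marks the 2782 genes that rose, blue the 2148 that fell and grey the rest. The largest rises lie to the left, among low genes, with Acta2 as the labelled exception, while Fn1 is the gene farthest to the right and lies below 0.

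Several smooth-muscle genes rose strongly. Acta2, smooth-muscle actin and a classical marker of contractile cells, read 466 and 584 at 96 h against 6408 and 10808 at 7 d, a log2 change of 3.99 (SE 0.29, adjusted p = 3.56e-07). Its 24 h values were 19.7 and 17.3, so the late rise came on top of an earlier one. Tagln, the actin-binding protein transgelin, read 3162 and 3926 at 96 h against 7360.4 and 9821 at 7 d, a log2 change of 1.27 (SE 0.22, adjusted p = 0.00037). The enteric smooth-muscle actin Actg2 read 73.6 and 88.7 at 96 h against 624 and 993 at 7 d, a log2 change of 3.27 (SE 0.49, adjusted p = 0.000121). Cnn1, calponin, read 143 and 56.7 at 96 h against 471 and 933 at 7 d, a log2 change of 2.87 (SE 0.41, adjusted p = 8.56e-05). Its 72 h values were 207.7 and 237.4, above both 96 h values. In each of these 4 genes both 7 d libraries exceeded both 96 h libraries. The rule for naming the largest rises required this of every gene it picked. Csrp1, an actin-associated LIM protein, rose by 1.36, and Tpm1, a tropomyosin, by 0.79. Csrp1 had read 10975 and 9682 at 72 h, before 6744 and 5939.5 at 96 h and 13548 and 19351 at 7 d. Lmod1, which nucleates smooth-muscle actin filaments, stood at 4.7 and 4.4 at 96 h against 32.0 and 81.8 at 7 d and rose by 3.24. It was measured only through its 7 d level.

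The non-muscle part of the actin machinery was mixed. Of 26 measured members of the list of SRF and smooth-muscle contractile genes, 14 rose and 3 fell, or 12 and 3, with a median of 0.33, among the 24 that did not enter through their 7 d level alone. Myh10, a non-muscle myosin chain, rose by 1.08. The 3 that fell were Flna, the actin cross-linker filamin A, Myh9, the heavy chain of non-muscle myosin, and Actn1, an α-actinin. Flna read 131876 and 127149 at 96 h against 95865 and 89758 at 7 d, a log2 change of -0.48 (SE 0.12, adjusted p = 0.00516). Myh9 read 137465 and 143588 at 96 h against 102350 and 101693 at 7 d, a log2 change of -0.46 (SE 0.12, adjusted p = 0.00567). Actn1 changed by -0.39, adjusted p = 0.00325. After a correction for transcript length, described below, Flna changed by -0.28, adjusted p = 0.0611, and Myh9 by -0.28, adjusted p = 0.0429. The list then had 16 members higher and 2 lower. Srf itself, the transcription factor that drives many of these genes, read 3886 and 3869 at 96 h against 3535 and 4462 at 7 d (0.03, adjusted p = 0.827). Cytoplasmic β-actin, Actb, changed by 0.23, adjusted p = 0.224, and without the first 7 d library by 0.47, adjusted p = 0.0146.

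**Figure D2:**
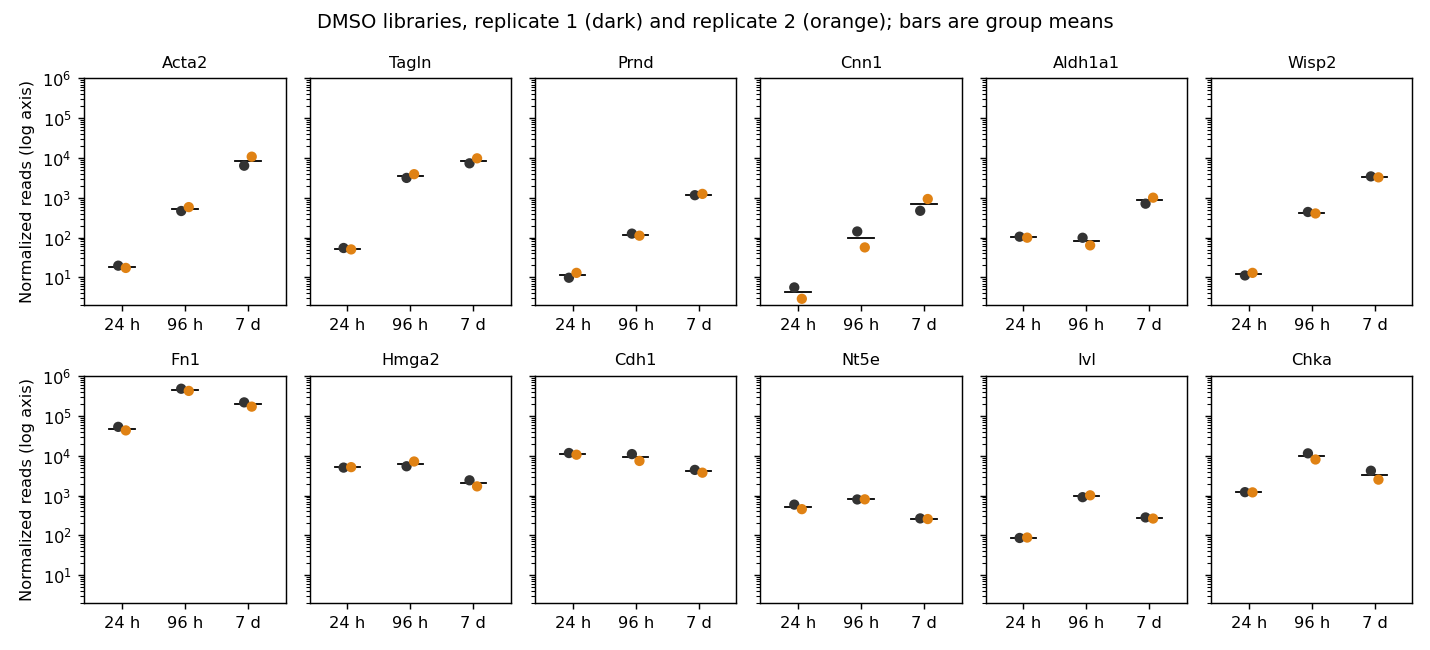
Normalized reads of 12 genes (log axis, the same for every panel) in each DMSO library at 24 h, 96 h and 7 d, with bars at the group means. Acta2, Tagln, Prnd, Cnn1 and Wisp2 climb at both steps, Aldh1a1 climbs only after 96 h, Fn1, Ivl and Chka peak at 96 h, and Hmga2, Cdh1 and Nt5e are lowest at 7 d. These patterns cover the times drawn only, and the 48 h and 72 h levels are not shown.

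Other large rises were spread over genes of different roles. Aldh1a1, which makes retinoic acid, read 99.1 and 63.8 at 96 h against 712 and 1008 at 7 d, a log2 change of 3.40 (SE 0.25, adjusted p = 3.78e-07). Its near-identical neighbour Aldh1a7 showed the largest named rise, with 10.0 and 1.8 at 96 h against 152 and 232 at 7 d, a log2 change of 5.09 (SE 0.86, adjusted p = 0.000326), but reads of such copies may be split or shared in counting. Prnd, which encodes the prion-like protein doppel, read 126 and 112 at 96 h against 1163 and 1254 at 7 d, a log2 change of 3.34 (SE 0.25, adjusted p = 4.18e-07). Wfdc1, a small secreted protein with a protease-inhibitor-like domain, rose from 2.0 and 2.7 to 45.4 and 66.9, and Bsnd, a chloride channel subunit, from 8.0 and 7.1 to 72.4 and 105. Aldh1a7, Wfdc1 and Bsnd had a 96 h mean under 10 and were measured only through their 7 d level. Casp14, a caspase of keratinizing epithelia, rose by 3.14 and ORF63, a gene without a described role here, by 3.14. Nlrp10, a NOD-like receptor, rose by 3.96, adjusted p = 0.0111, but not without the second 96 h library (3.02, adjusted p = 0.117) or the second 7 d library (3.67, adjusted p = 0.0843).

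The largest falls were likewise spread over genes of different roles. Hmga2, an architectural chromatin protein that promotes the transition downstream of TGF-β, read 5431 and 7156 at 96 h against 2410.3 and 1696 at 7 d, a log2 change of -1.62 (SE 0.15, adjusted p = 1.92e-06). Nt5e, the CD73 ectonucleotidase that makes adenosine, read 796 and 802 at 96 h against 266 and 256 at 7 d, a log2 change of -1.61 (SE 0.14, adjusted p = 9.62e-07). Chka, choline kinase α of phosphatidylcholine synthesis, read 11469.5 and 8037 at 96 h against 4194 and 2506 at 7 d, a log2 change of -1.57 (SE 0.19, adjusted p = 2e-05). Ivl, the cornified envelope protein involucrin, read 908 and 1012 at 96 h against 281 and 264 at 7 d, a log2 change of -1.81 (SE 0.14, adjusted p = 4.18e-07), after 85.7 and 87.9 at 24 h. Both 7 d values of these 4 genes lay below both 96 h values, which the rule for naming the largest falls required. The corepressors of the Groucho family Tle2 and Tle6 fell by 1.90 and 1.58, and the unnamed gene model Gm14378 by 1.46. Padi1, a peptidyl-arginine deiminase, fell by 1.51 but did not pass without the first 96 h library (-0.92, adjusted p = 0.228) or the first 7 d library (-1.21, adjusted p = 0.135).

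Fibronectin fell while several other matrix genes rose. Fn1, fibronectin, read 482266 and 425386 at 96 h against 218959 and 171211 at 7 d, a log2 change of -1.23 (SE 0.18, adjusted p = 9.98e-05), after 53114 and 43252 at 24 h. Fbln2, the matrix protein fibulin 2, read 244184 and 252107 at 96 h against 164798 and 124140 at 7 d, a log2 change of -0.79 (SE 0.14, adjusted p = 0.000394), and Tnc, tenascin C, changed by -0.75, adjusted p = 0.000526. All 3 stayed above their 24 h values in both 7 d libraries. Wisp2, a matricellular protein of the CCN family, went the other way with 440.5 and 404 at 96 h against 3456 and 3267 at 7 d, a log2 change of 2.99 (SE 0.19, adjusted p = 1.26e-07). Postn, periostin, rose from 5.4 and 3.5 to 42.1 and 43.9, and Fbn1, the microfibril protein fibrillin 1, from 114 and 119.7 to 315 and 304. Postn was measured only through its 7 d level. The osteopontin gene Spp1 fell by 0.91, or 0.46 without the first 96 h library, where it no longer passed (adjusted p = 0.0555). The list of matricellular and matrix glycoproteins had 19 members, 3 of which entered only through their 7 d level. Of the other 16 members 6 rose and 4 fell, with a median of -0.02, and 2 to 4 rose when 1 of the 4 libraries was left out.

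Enzymes that cross-link and modify collagen mostly rose. On that list 10 of 16 members rose and 2 fell, or 9 and 2, with a median of 0.39, among the 14 that did not enter through their 7 d level alone, and 5 rose without the second 96 h library. Loxl1, a lysyl oxidase that cross-links elastin and collagen, read 67.0 and 71.8 at 96 h against 220.5 and 302 at 7 d, a log2 change of 1.88 (SE 0.25, adjusted p = 4.03e-05). Lox, its founding relative, rose from 3.3 and 2.7 to 23.6 and 23 and was measured only through its 7 d level. The 2 that fell were Plod3, a collagen lysyl hydroxylase (-0.34), and Bmp1, a procollagen protease (-0.45), which missed the threshold without the second 7 d library (-0.36, adjusted p = 0.0669). P4hb, a subunit of prolyl hydroxylase, changed by 0.35, adjusted p = 0.00821, and did not pass without the second 96 h library (0.27, adjusted p = 0.101) or the second 7 d library (0.30, adjusted p = 0.0697). Tgm2, the cross-linking transglutaminase, read 22938 and 28335 at 96 h against 23468 and 25790 at 7 d (-0.05, adjusted p = 0.732).

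Collagens and basement membrane genes split by gene. Of 13 measured fibrillar and other collagens 5 rose and 2 fell, with 3 rising without the second 96 h library or the second 7 d library. Among the 11 collagens with a mean of at least 10 at both times 4 rose and 2 fell, beside 21.0% and 15.5% of all tested genes. Col7a1, of the anchoring fibrils, fell by 0.84 and Col18a1, the source of endostatin, by 0.49. Col6a3 read 112 and 82.5 at 96 h against 188 and 183 at 7 d and passed with all libraries (0.94, adjusted p = 0.011), but not without the second 96 h library (0.73, adjusted p = 0.115) or the second 7 d library (0.97, adjusted p = 0.0579). In the basement membrane list, beside the same shares of all tested genes, 6 of 18 rose and 6 fell, and 2 fell without the second 7 d library. Sparc, which binds collagen, read 9356 and 7036 at 96 h against 22411 and 27346 at 7 d, a log2 change of 1.61 (SE 0.13, adjusted p = 6.23e-07). The laminin chain Lama3 rose from 19.4 and 25.7 to 104 and 76.4. Agrn, the proteoglycan agrin, fell with 78734 and 65249.8 at 96 h against 43373 and 34787 at 7 d, a log2 change of -0.88 (SE 0.15, adjusted p = 0.000293). Col4a1, the main network collagen, changed by -0.35, adjusted p = 0.0279 and did not pass when the first 96 h, the second 96 h or the second 7 d library was left out (lowest adjusted p 0.0882).

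Proteases, their inhibitors and integrins changed in both directions. Among 22 matrix proteases and inhibitors 7 rose and 3 fell, with 4 rising without the second 96 h or the second 7 d library and 1 falling without the second 7 d library. Among the 19 with a mean of at least 10 at both times 5 rose and 2 fell, beside 21.0% and 15.5% of all tested genes. Timp2, an inhibitor of metalloproteinases, read 26040.2 and 22541 at 96 h against 39421 and 38852 at 7 d, a log2 change of 0.69 (SE 0.13, adjusted p = 0.000618), and Timp1 rose by 0.71. Adam8, a membrane protease, fell by 0.86. Of 15 integrins 4 rose and 4 fell, and the number falling was 1 without the first 96 h library or the second 7 d library and 2 without the second 96 h library. Among the 14 integrins with a mean of at least 10 at both times 3 rose and 4 fell. Itgb6, the epithelial chain of a receptor that activates latent TGF-β, read 596 and 818 at 96 h against 2225 and 1896 at 7 d, a log2 change of 1.55 (SE 0.17, adjusted p = 8.5e-06). Itga1, a collagen receptor chain, rose by 1.76. Itga3, a laminin receptor chain, read 54239 and 42212 at 96 h against 27039.6 and 23584 at 7 d, a log2 change of -0.92 (SE 0.12, adjusted p = 3.06e-05). Itgb1, the common β1 chain, changed by 0.18, adjusted p = 0.178.

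E-cadherin fell at this late step. Cdh1 read 10992 and 7394 at 96 h against 4399.7 and 3746 at 7 d, a log2 change of -1.15 (SE 0.14, adjusted p = 2.06e-05), after 11689 and 10598 at 24 h. Both 7 d libraries lay below all 4 earlier values given here. Occludin, Ocln, a tight-junction protein, read 349 and 233 at 96 h against 131 and 115 at 7 d, a log2 change of -1.21 (SE 0.22, adjusted p = 0.000643). Claudin 4, Cldn4, changed by -1.08, adjusted p = 0.000378. Catenin genes did not pass the test, with changes of 0.09, adjusted p = 0.517 for Ctnnd1, p120 catenin, and -0.14, adjusted p = 0.302 for Jup, plakoglobin. Spint1, a membrane serine protease inhibitor of epithelia, rose from 4.7 and 4.4 to 23.6 and 15.5 and was measured only through its 7 d level. The epithelial junction and polarity list had 6 of 36 measured members higher and 10 lower, with a median of -0.09, where the list held 47 genes. Among the 32 with a mean of at least 10 at both times 5 rose and 10 fell, beside 21.0% and 15.5% of all tested genes. Epcam, an epithelial surface marker on that list, was listed at 0 in both 96 h libraries and at 11.8 and 8.1 at 7 d, just under the minimum mean.

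Krt14 and Krt5, keratins of basal cells, rose, while Krt8 and Krt18, of simple epithelia, did not pass the test. Krt8 read 67126 and 62392 at 96 h against 55084 and 74035 at 7 d (-0.02, adjusted p = 0.934), and Krt18 read 72193 and 70788 at 96 h against 67156 and 82885 at 7 d (0.06, adjusted p = 0.746). Krt14, a keratin of basal cells, read 4.0 and 8.9 at 96 h against 55.5 and 56.1 at 7 d, a log2 change of 3.01 (SE 0.42, adjusted p = 7.67e-05). Its partner Krt5 rose from 9.4 and 8.0 to 25.2 and 25, against 153 and 249 at 24 h. Krt14 and Krt5 had a 96 h mean under 10 and were measured only through their 7 d level. Of the other 9 measured keratins 4 rose and 1, Krt7, fell, with a median of 0.06, and 2 rose without the first 96 h and 1 without the second 7 d library. Krt7 changed by -0.47, adjusted p = 0.033 and missed the threshold without the second 96 h or the first 7 d library. On the basal and myoepithelial marker list, which shares Acta2, Krt14, Krt5, Cnn1, Sparc and Vim with the groups above, 5 of 16 measured members entered only through their 7 d level. Of the other 11 members 6 rose and 1, the integrin chain Itga6, fell, with a median of 0.73, and 0 fell without the first 96 h or the second 7 d library. Trp63, the defining basal transcription factor, stayed under the minimum mean, with 0.7 and 0 at 96 h and 5.0 and 4.7 at 7 d. Of 11 measured cornified envelope genes 2 rose and 1, Ivl, fell, with 4 rising without the first 96 h library and 2 falling without the second. The 2 were Cstb, a cathepsin inhibitor (0.46), and Sprr2h (1.04), 1 of a family of similar genes.

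Transcription factors of the transition were among the genes that fell. Of 13 measured genes on that list 0 passed as higher (limma, with all libraries) and 6 as lower, with a median of -0.27, and 3 were lower without the second 7 d library. Zeb1 read 2526 and 2830.1 at 96 h against 2604 and 2207 at 7 d (-0.16, adjusted p = 0.22), Zeb2 1566 and 1694 at 96 h against 1902 and 1534 at 7 d (0.07, adjusted p = 0.661) and Snai1 241 and 409.6 at 96 h against 370.3 and 545 at 7 d (0.51, adjusted p = 0.0823). None of these 3 repressors of Cdh1 passed with all libraries, but Snai1 rose by 0.90, adjusted p = 0.0116 without the second 96 h library and by 0.79, adjusted p = 0.0274 without the first 7 d library. Sox4, a SMAD target that promotes the transition, read 12673 and 14475 at 96 h against 9139 and 7684 at 7 d, a log2 change of -0.69 (SE 0.15, adjusted p = 0.00207). Foxc1 read 82.4 and 73.6 at 96 h against 33.7 and 54.1 at 7 d and passed with all libraries (-0.85, adjusted p = 0.0309), but its change was -0.52, adjusted p = 0.256 without the first 7 d library and it missed the threshold without either 96 h library too. N-cadherin, Cdh2, read 17253 and 15738 at 96 h against 15266 and 12209 at 7 d (-0.27, adjusted p = 0.0317), and its change was -0.11, adjusted p = 0.416 without the second 7 d library, -0.43, adjusted p = 0.00214 without the first, and -0.21, adjusted p = 0.199 without the first 96 h library. Vimentin, Vim, rose with 38243 and 36562 at 96 h against 49366 and 58948 at 7 d, a log2 change of 0.53 (SE 0.10, adjusted p = 0.00104), and stayed below its 24 h values of 79836 and 81298.

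TGF-β pathway genes changed in both directions. Of 36 measured members 11 rose and 7 fell, with a median of 0.10, beside 21.0% and 15.5% of all tested genes. Among ligands, Tgfb2 read 674 and 494 at 96 h against 1281 and 1178 at 7 d, a log2 change of 1.09 (SE 0.17, adjusted p = 0.000223), and Tgfb3 rose from 26.8 and 24.8 to 57.2 and 67.6. Tgfb1 read 1849.9 and 2046 at 96 h against 2139 and 2032 at 7 d (0.10, adjusted p = 0.364). The latent TGF-β binding proteins, which tether the ligands in the matrix, differed, with Ltbp2 rising by 1.87, adjusted p = 4.18e-05, and Ltbp1, Ltbp3 and Ltbp4 falling by 0.77, 0.36 and 0.73. Smad3, a transducer of TGF-β, read 5528 and 4813 at 96 h against 3186 and 2895 at 7 d, a log2 change of -0.76 (SE 0.13, adjusted p = 0.00031). Smad7, the feedback inhibitor, changed by -0.34, adjusted p = 0.424, and Pmepa1, another feedback gene, by 0.11, adjusted p = 0.419, or 0.33, adjusted p = 0.0247 without the second 96 h library. Id3, which holds back differentiation factors, read 232 and 228 at 96 h against 678 and 1388 at 7 d, a log2 change of 2.07 (SE 0.22, adjusted p = 6.69e-06), and Smad6, an inhibitor of BMP signals, changed by 1.202, adjusted p = 8.63e-05. Id2, a relative of Id3, changed by 1.54, adjusted p = 0.00104, and Id1, another relative of Id3, by 0.49, adjusted p = 0.0241. Id1 did not pass without the first 96 h, the second 96 h or the second 7 d library.

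Proliferation genes rose almost as a body. On the list of G2/M and mitosis genes 49 of 51 members rose, 0 fell and all 51 were positive, with a median of 1.01, and 44 to 50 rose when 1 of the 4 libraries was left out. Their median change from 24 h to 96 h had been -2.05. Ccnb2, a cyclin that carries cells into mitosis, read 134 and 177 at 96 h against 502 and 549 at 7 d, a log2 change of 1.76 (SE 0.14, adjusted p = 6.72e-07). Cdc25c, the phosphatase that activates Cdk1, read 91.7 and 98.4 at 96 h against 299.6 and 335 at 7 d, a log2 change of 1.73 (SE 0.17, adjusted p = 2.9e-06). Top2a, the topoisomerase that untangles sister chromosomes, read 3999 and 4486 at 96 h against 7818 and 8768 at 7 d, a log2 change of 0.97 (SE 0.10, adjusted p = 7.33e-06). Mki67, the Ki-67 antigen of cycling cells, rose by 1.60, from 1280.1 and 1476 to 3617 and 4802, and the spindle protein Tpx2 by 0.65. All 51 members stayed below their 24 h mean at 7 d, with a median difference of -0.96. The members that did not pass were Plk4 (0.44, adjusted p = 0.0724) and Smc4 (0.29, adjusted p = 0.106), and Smc4 passed without the second 96 h library (0.46, adjusted p = 0.0386).

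DNA replication genes rose with a smaller median. Of 51 members 32 rose and 0 fell, with a median of 0.49, but 13 rose without the second 7 d library. Tk1, thymidine kinase, read 352 and 245 at 96 h against 666 and 1176 at 7 d, a log2 change of 1.59 (SE 0.24, adjusted p = 0.000133). E2f7, a repressor that is itself an E2F target, rose by 1.38. Pcna, the replication clamp, read 3069.7 and 3260.1 at 96 h against 4216 and 4715 at 7 d (0.49, adjusted p = 0.0134), and did not pass without the first 96 h library (0.45, adjusted p = 0.074) or the second 7 d library (0.41, adjusted p = 0.116). Mcm2, of the replicative helicase, changed by 0.14, adjusted p = 0.341. Among cell cycle brakes, 10 of 28 CDK inhibitors and p53 targets were higher and 2 lower, or 4 lower without the first and 1 without the second 7 d library. Cdkn2c, the inhibitor p18, rose by 1.28 and Cdkn1a, p21, by 0.56, the latter not without the second 7 d library (0.31, adjusted p = 0.0757). Fas, a death receptor and p53 target, read 60.3 and 47.0 at 96 h against 291 and 429.9 at 7 d, a log2 change of 2.71 (SE 0.27, adjusted p = 3.52e-06). The 2 that fell were the kinase Plk3 (-0.75), which missed the threshold without the second 7 d library (-0.53, adjusted p = 0.116), and cyclin D1, Ccnd1, which read 21505 and 20347 at 96 h against 14324 and 12656 at 7 d, a log2 change of -0.64 (SE 0.13, adjusted p = 0.00168). Mdm2, which degrades p53, changed by -0.14, adjusted p = 0.44.

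Promoter sequence was read for the groups that rose together, because a short element recurs in many mitotic promoters. The cell cycle homology region is bound by the DREAM and MuvB complexes, and its core letters TTTGAA were searched on both strands of the 250 bases before each RefSeq start (build GRCm38.p6). They were found in 13 of the 40 mitosis genes with an entry, 32.5%, beside 16.7% of 22862 promoters. All 13 belonged to genes that rose, as did 39 of the 40. Ccnb2 (chr9:70421555-70421804, minus strand) and Cdc20 (chr4:118437344-118437593, minus strand) are shown because both carry the letters, marked in capitals, starting 167 and 18 bases before the start. Cdc20, the activator of the anaphase-promoting complex, changed by 1.28, adjusted p = 1.33e-05.
Ccnb2: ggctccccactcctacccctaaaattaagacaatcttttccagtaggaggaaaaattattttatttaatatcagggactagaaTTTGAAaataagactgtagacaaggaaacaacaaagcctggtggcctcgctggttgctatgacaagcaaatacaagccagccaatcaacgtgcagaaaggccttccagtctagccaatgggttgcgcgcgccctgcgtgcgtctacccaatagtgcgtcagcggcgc
Cdc20: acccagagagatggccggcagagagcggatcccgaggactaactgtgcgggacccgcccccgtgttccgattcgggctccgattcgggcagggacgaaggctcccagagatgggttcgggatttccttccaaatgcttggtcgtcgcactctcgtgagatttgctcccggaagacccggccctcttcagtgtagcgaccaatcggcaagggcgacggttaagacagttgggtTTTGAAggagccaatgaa
The match is a description of these letters only and no sign of binding.

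Interferon-stimulated genes rose widely. Of 48 measured members 36 rose and 0 fell, or 29 and 0, with a median of 0.90, among the 41 that did not enter through their 7 d level alone. Of the 48, 20 rose without the second 96 h library and 23 without the second 7 d library. Ifi44, an antiviral response gene, read 7.4 and 9.8 at 96 h against 80.8 and 52.0 at 7 d, a log2 change of 2.79 (SE 0.44, adjusted p = 0.000186). Gbp3, a guanylate-binding protein, read 21.4 and 16.0 at 96 h against 141 and 123 at 7 d, a log2 change of 2.77 (SE 0.33, adjusted p = 1.98e-05). Isg15, a ubiquitin-like modifier, read 45.5 and 29.3 at 96 h against 125 and 114 at 7 d, a log2 change of 1.68 (SE 0.30, adjusted p = 0.000477). Irgm1, a GTPase of host defence, changed by 0.46, adjusted p = 0.00656 and missed the threshold without the second 96 h library (0.36, adjusted p = 0.0824) or the second 7 d library (0.42, adjusted p = 0.0591). Lgals3bp, a secreted galectin ligand, rose by 0.59, and by 0.37 without the second 96 h library. Oas2, 1 of several similar genes, read 6.0 and 0 at 96 h against 16.8 and 18.2 at 7 d (2.80, adjusted p = 0.0308), and did not pass without the second 96 h library or either 7 d library. Ifi44 and Oas2 were measured only through their 7 d level. The regulators differed: Irf7 rose by 1.49, adjusted p = 0.000996, while Irf9 changed by 0.01, adjusted p = 0.954.

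The class I antigen presentation genes, which interferon also controls, had 12 of 18 measured members higher and 0 lower, with a median of 0.72, and 7 higher without the second 96 h library. Among the 17 with a mean of at least 10 at both times 11 rose and 0 fell. B2m, the light chain of class I molecules, read 4579.5 and 5073 at 96 h against 8887 and 8782 at 7 d, a log2 change of 0.87 (SE 0.09, adjusted p = 4.65e-06). Tapbp, tapasin of the peptide-loading complex, read 3486 and 2818 at 96 h against 7009 and 7390.2 at 7 d, a log2 change of 1.199 (SE 0.10, adjusted p = 9.62e-07). H2-K1, a classical class I heavy chain, rose by 0.97, but class I genes are similar enough that reads may be split between them. Cd74, the class II invariant chain, changed by 1.28, adjusted p = 0.00833 and missed the threshold without the second 96 h library (0.98, adjusted p = 0.0998) or the first 7 d library (1.03, adjusted p = 0.0715).

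Interferon response elements were searched the same way, as GAAA, 2 free bases and GAAA again, the repeat that interferon regulatory factors bind, on both strands. Matches were found in 13 of the 28 listed interferon genes with an entry, 46.4%, beside 3.11% of all 22862 promoters, and in 10 of the 22 with an entry that rose. The letters of this motif and of the mitotic element do not contain each other. Isg15 (chr4:156200819-156201068, minus strand) is shown for its 3 overlapping matches, the first starting 78 bases before the start, and Oas3 (chr5:120777660-120777909, minus strand) for its single match 75 bases before. Oas3, an oligoadenylate synthetase, changed by 1.29, adjusted p = 0.00715, and missed the threshold without the second 96 h library (1.01, adjusted p = 0.0882) or the second 7 d library (1.11, adjusted p = 0.0792).
Isg15: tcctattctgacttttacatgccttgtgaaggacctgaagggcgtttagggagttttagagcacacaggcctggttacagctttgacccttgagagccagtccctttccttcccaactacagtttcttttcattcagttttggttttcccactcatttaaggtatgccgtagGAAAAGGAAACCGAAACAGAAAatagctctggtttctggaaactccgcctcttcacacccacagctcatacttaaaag
Oas3: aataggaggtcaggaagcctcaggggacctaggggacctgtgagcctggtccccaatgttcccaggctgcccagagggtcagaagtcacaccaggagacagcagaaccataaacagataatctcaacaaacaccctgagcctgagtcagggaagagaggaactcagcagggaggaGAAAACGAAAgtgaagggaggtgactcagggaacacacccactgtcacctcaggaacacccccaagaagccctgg
Of the 20 contractile genes with an entry 5 held a CArG box, the element bound by Srf, 25% beside 1.38% of all promoters, and 2 of these 5 rose. The sterol element, searched as ATCAC, 1 free base and CCAC, was in 0 of 13 cholesterol gene windows, beside 0.184% of all promoters, which says only that these letters are not in those windows.

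Chemokines and other NF-kB targets rose widely. Of 33 measured members 22 rose and 4 fell, with a median of 0.74, or 20 and 4 among the 31 that did not enter through their 7 d level alone. Cxcl5, which attracts neutrophils, read 171 and 31.9 at 96 h against 714 and 456 at 7 d (2.93, adjusted p = 0.000697). Its 96 h replicates differed widely, and without the second of them the change was 1.73. Cxcl10, an interferon-induced chemokine, read 28.8 and 22.2 at 96 h against 173 and 199 at 7 d, a log2 change of 2.83 (SE 0.38, adjusted p = 4.93e-05). Ccl2, which attracts monocytes, read 4073 and 3169 at 96 h against 15677 and 12968 at 7 d, a log2 change of 1.99 (SE 0.25, adjusted p = 3.26e-05). Csf1, the macrophage growth factor, read 26869.7 and 30968 at 96 h against 50693 and 37877 at 7 d and passed (0.60, adjusted p = 0.0213), but changed by 0.39, adjusted p = 0.194 without the first 7 d library and 0.50, adjusted p = 0.128 without the first 96 h library. Nfkbia, the inhibitor IκBα and itself a target, rose by 1.44. The 4 that fell were Il11 and Lif, cytokines of the IL-6 family, and the feedback genes Nfkbiz and Tnfaip3, and 1 of them fell without the second 96 h or the second 7 d library and 2 without the first 96 h library. Il11 read 13133 and 18283 at 96 h against 7401 and 8282 at 7 d, a log2 change of -0.98 (SE 0.22, adjusted p = 0.00288). Its change was -0.75, adjusted p = 0.0506 without the second 96 h library. Among 19 acute-phase, complement and antimicrobial genes 9 rose and 1 fell, or 6 and 1 among the 15 that did not enter through their 7 d level alone, and 4 rose without the second library of either time. Lcn2, the iron-scavenging lipocalin, rose by 1.85, and Mfge8, a milk-fat globule protein that tags dying cells, read 16780.1 and 16227 at 96 h against 24129.5 and 23318 at 7 d, a log2 change of 0.52 (SE 0.08, adjusted p = 0.00013). Clu, the secreted chaperone clusterin, changed by 0.49, adjusted p = 0.0096, and missed the threshold without the second 96 h library (0.43, adjusted p = 0.0824). The 1 that fell was Wfdc2 (-0.42, adjusted p = 0.0486), whose libraries overlapped between the times. It missed the threshold without the first 96 h library (-0.13, adjusted p = 0.565) or either 7 d library, and changed by -0.71, adjusted p = 0.0053 without the second 96 h library.

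Leukocyte genes were read beside these inflammatory genes. Of 17 leukocyte markers 7 were measured, 2 rose and 0 fell, with 1 rising without the second 7 d library. Among the 5 with a mean of at least 10 at both times 1 rose. Ptprc, the pan-leukocyte antigen CD45, read 2.0 and 2.7 at 96 h and 11.8 and 5.4 at 7 d, and Tyrobp was listed at 0 in all 4 libraries. The summed level of the list was 1590 and 1202 at 96 h and 2008 and 1913 at 7 d, most of it from Csf1r, the Csf1 receptor, Cd14 and Cd68. Csf1r rose with 584 and 460.2 at 96 h against 880.3 and 798 at 7 d, a log2 change of 0.69 (SE 0.13, adjusted p = 0.000731). Endothelial markers had 5 of 12 measured, 2 of them higher (1 without the first library of either time), a summed level of 579.9 and 785 at 96 h and 847 and 766 at 7 d, and Cldn5 listed at 0 in all 4 libraries. Cdh5, VE-cadherin, changed by 0.84, adjusted p = 0.00617, but by 0.53, adjusted p = 0.106 without the first 96 h library. Among the 3 endothelial markers with a mean of at least 10 at both times 1 rose. Fibroblast markers had 5 of 13 measured, 1 of them only through its 7 d level. Of the other 4 members 3 rose, among them S100a4, a calcium-binding protein that read 697 and 601 at 96 h against 1937 and 3074 at 7 d, a log2 change of 1.91 (SE 0.17, adjusted p = 1.14e-06). Their summed level was 1790 and 1957 at 96 h and 3949 and 4950 at 7 d, after 7826 and 8879 at 24 h. Dcn and Lum, which define fibroblasts, were listed at 0 in both 96 h libraries. At 7 d Dcn read 5 and 4.1 and Lum 1.7 and 0, both under the minimum mean. Of 10 adipocyte markers 2 were measured. Pparg, the adipocyte regulator, was listed at 0 in both 96 h libraries and at 15.1 and 12.2 at 7 d, after 23.9 and 15.9 at 24 h. The other, Plin4, read 270.5 and 258 at 96 h against 237.3 and 220.3 at 7 d and did not pass the test. Luminal and milk genes had 3 of 12 measured members higher and 2 lower, with 1 higher without either 96 h library or the second 7 d library and 1 lower without either 7 d library, and Xdh, an enzyme of milk secretion, read 391 and 270.4 at 96 h against 764 and 755 at 7 d, a log2 change of 1.22 (SE 0.22, adjusted p = 0.000481). Among the 11 luminal and milk genes with a mean of at least 10 at both times 2 rose and 2 fell, beside 21.0% and 15.5% of all tested genes. The part of other cell types in the inflammatory rise was not tested.

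**Figure D3:**
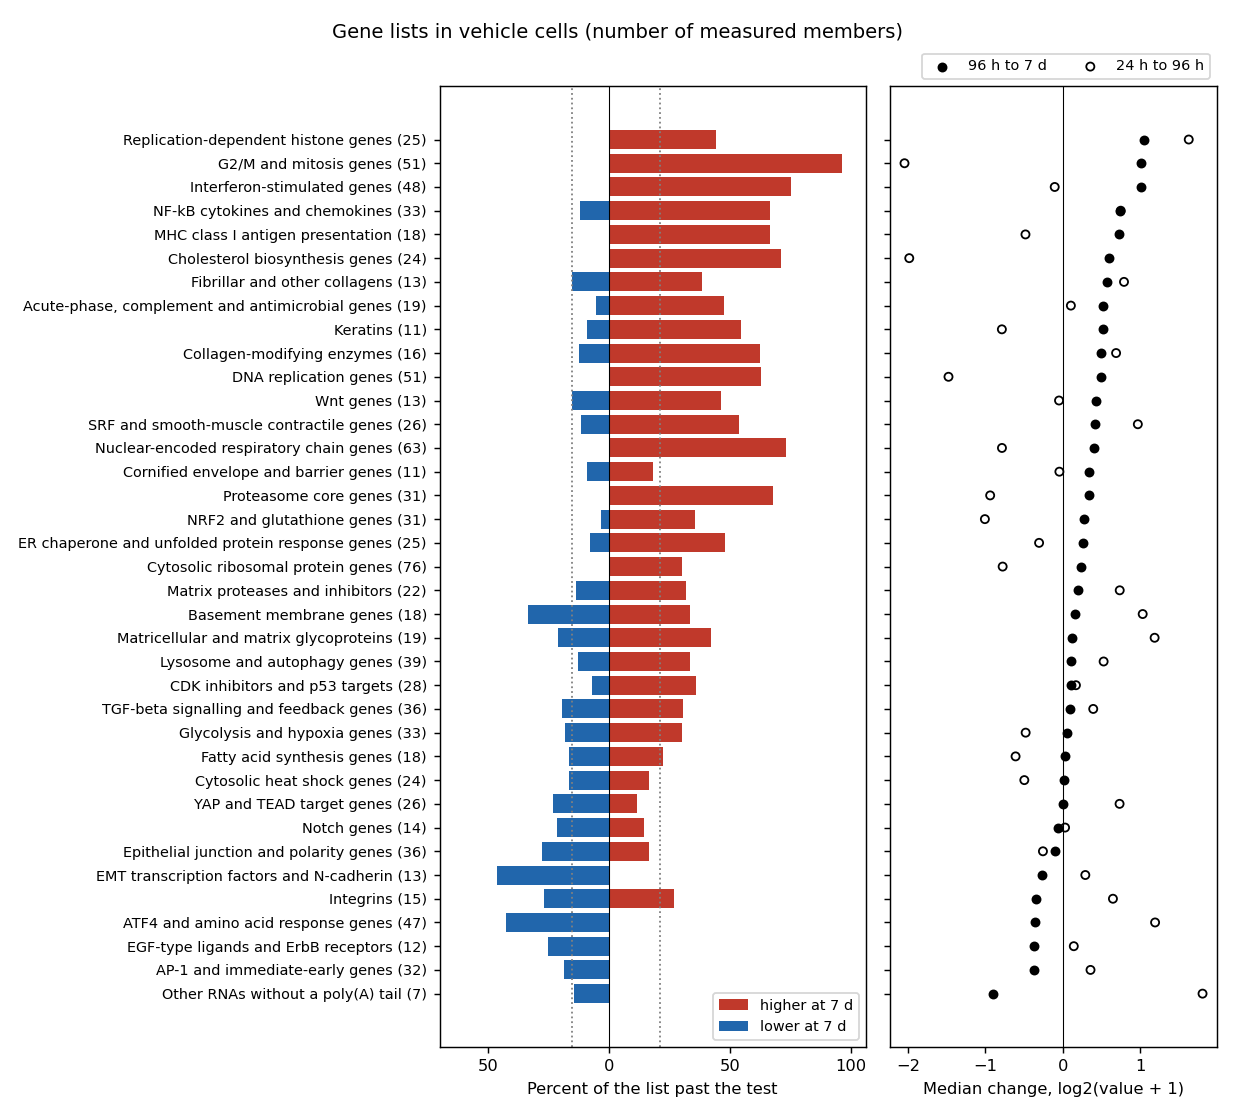
Left, the percentage of each gene list that rose (red, to the right) or fell (blue, to the left), with the number of measured members in parentheses and dotted lines at the 21.0% and 15.5% of all tested genes. Members with a 96 h mean under 10, which entered only through their 7 d level, are included. Right, the median change of each list from 96 h to 7 d (filled) and from 24 h to 96 h (open) on the log2(value + 1) scale. Mitosis genes hold the largest share that rose, and ATF4 genes are among the lists with falls alone.

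Cholesterol synthesis genes partly regained the level lost before 96 h. Of 24 members 17 rose and 0 fell, with a median of 0.60, after a median change of -1.98 from 24 h to 96 h. Insig1, a sterol sensor, read 329 and 399 at 96 h against 806 and 1229 at 7 d, a log2 change of 1.46 (SE 0.22, adjusted p = 0.000146), after 3351 and 4159 at 24 h. Cyp51, a lanosterol demethylase, read 6058 and 6058 at 96 h against 11354 and 13716 at 7 d, a log2 change of 1.04 (SE 0.14, adjusted p = 4.95e-05). All 24 members remained below their 24 h mean at 7 d. Srebf2, the factor that activates these genes, changed by 0.29, adjusted p = 0.138. Srebf2 passed without the first 96 h library (0.49, adjusted p = 0.0333) or the first 7 d library (0.47, adjusted p = 0.0413). Fatty acid synthesis genes differed, with 4 of 18 higher and 3 lower, and 2 higher and 1 lower without the second 96 h or the first 7 d library. The 3 were Acaca, the first committed enzyme, which read 3008 and 2824 at 96 h against 1931 and 1874 at 7 d, a log2 change of -0.62 (SE 0.09, adjusted p = 8.47e-05), with the synthase Fasn (-0.35) and the lyase Acly (-0.23). Without the first 7 d library these last changed by -0.18, adjusted p = 0.102 and -0.13, adjusted p = 0.272, and both also missed the threshold without the second 96 h library, Acly without the first too. Scd2, a desaturase, changed by -0.10, adjusted p = 0.652.

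Nuclear genes of the respiratory chain rose by small amounts. Of 63 measured members 46 rose and 0 fell, with a median of 0.41, beside 27 without the second 96 h library and 21 without the second 7 d library. Cox6b1, a subunit of cytochrome oxidase, read 1613 and 1388 at 96 h against 2451 and 3432 at 7 d, a log2 change of 0.95 (SE 0.15, adjusted p = 0.000171), and Cox7a2, another subunit, rose by 0.85. The catalytic subunits of ATP synthase did not pass, with changes of 0.20, adjusted p = 0.131 for Atp5b and 0.07, adjusted p = 0.575 for Atp5a1. Proteasome genes had 21 of 31 higher and 0 lower, with a median of 0.33, but 6 without the second 7 d library and 13 without the second 96 h library. Psmb3, of the catalytic core, read 2393 and 2296 at 96 h against 3341 and 3990.5 at 7 d, a log2 change of 0.64 (SE 0.13, adjusted p = 0.00112), and Psmd2, of the regulatory cap, changed by -0.21, adjusted p = 0.0751. Of 76 measured ribosomal protein genes 23 rose and 0 fell, with a median of 0.24. That count was 1 without the second 7 d library, 4 without the second 96 h library and 6 without the first. Rplp0, of the ribosomal stalk, changed by 0.35, adjusted p = 0.0383, and missed the threshold without the second 7 d library (0.29, adjusted p = 0.2), the first 96 h library (0.30, adjusted p = 0.171) or the second 96 h library (0.40, adjusted p = 0.0808).

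These groups have short transcripts, and transcript length moved with the late change across all members. The fifth of members with the shortest transcripts had a median change of 0.25 and the fifth with the longest one of -0.14, beside 0.20 and -0.13 in the JNKi arm. After a correction for length in each library, 23 respiratory chain genes were higher and 2 lower, 15 proteasome genes were higher and 1 lower, and 6 ribosomal protein genes were higher and 10 lower, with a median of -0.03. Direction thus turned for the ribosomal list. After it, mitosis genes had 50 higher and 0 lower, beside 49 and 0, and interferon genes 33 and 0, beside 36 and 0. With the correction 8 YAP genes were higher, beside 3 before it. Lysosome genes had 8 higher, beside 13, acute-phase genes 5, beside 9, and cornified envelope genes 0, beside 2. Integrins had 1 lower, beside 4, fatty acid genes 1, beside 3, and transition factors 3, beside 6. Genes named here that no longer passed after the correction included Flna, Cdh2, Foxc1, Col4a1, Clu, Pcna, Rplp0, Cstb, Sprr2h, Malat1, Atp7b and Alcam. The part of length in the late step was otherwise not tested.

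Glycolysis and hypoxia genes divided. Of 33 measured members 10 rose and 6 fell, with 3 each way without the second library of either time. Among the 31 with a mean of at least 10 at both times 9 rose and 6 fell, beside 21.0% and 15.5% of all tested genes. Egln3, an oxygen sensor and HIF target, read 351 and 246 at 96 h against 687 and 758 at 7 d, a log2 change of 1.29 (SE 0.15, adjusted p = 1.86e-05). Hk2, the inducible hexokinase, read 12531 and 13811 at 96 h against 8124 and 5744 at 7 d, a log2 change of -0.95 (SE 0.15, adjusted p = 0.000207). Vegfa, the endothelial growth factor, changed by -0.69, adjusted p = 0.00968, and missed the threshold without the second 96 h library (-0.63, adjusted p = 0.0673) or the second 7 d library (-0.40, adjusted p = 0.182). Pgam1, a glycolytic mutase, changed by 0.44, adjusted p = 0.0589, or 0.64, adjusted p = 0.02 without the first 7 d library. Slc2a3, a glucose transporter, rose from 1.3 and 0.9 to 35.3 and 20.3 and was measured only through its 7 d level.

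Amino acid response genes that passed the test all fell. On the list of ATF4 targets 20 of 47 members fell and 0 rose, with a median of -0.37, and the number was 9 without the second 7 d library, 13 without the second 96 h library and 29 without the first 7 d library. From 24 h to 96 h their median change had been 1.19. Pycr1, of proline synthesis, read 1264 and 1372 at 96 h against 860.1 and 562 at 7 d, a log2 change of -0.92 (SE 0.17, adjusted p = 0.000728). The leucyl-tRNA synthetase Lars read 12351 and 12599.9 at 96 h against 8574 and 6136 at 7 d, a log2 change of -0.78 (SE 0.13, adjusted p = 0.000352), and Slc7a3, a cationic amino acid transporter, fell from 167 and 177 to 99.3 and 96.7. Atf4 itself changed by 0.10, adjusted p = 0.604, Ddit3, the factor CHOP, by 0.31, adjusted p = 0.359, and Phgdh, of serine synthesis, by -0.12, adjusted p = 0.587. Endoplasmic reticulum chaperones differed, with 12 of 25 higher and 2 lower, or 1 lower without the second 7 d library or either 96 h library and 4 without the first 7 d library. Sec24d, of secretory vesicle coats, read 500.1 and 436 at 96 h against 889 and 1236 at 7 d, a log2 change of 1.16 (SE 0.14, adjusted p = 2.24e-05), Pdia3, a disulfide isomerase, changed by 0.50, adjusted p = 0.00107 and Hspa5, the main chaperone BiP, by -0.15, adjusted p = 0.434.

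Among the remaining stress lists, NRF2 and glutathione genes had 11 of 31 higher and 1, the drug exporter Abcc1, lower, with 6 higher without the second 7 d library and 7 without the second 96 h library, and 2 lower without the second 96 h or the first 7 d library. Among the 29 NRF2 and glutathione genes with a mean of at least 10 at both times 9 rose and 1 fell. Nqo1, a classical NRF2 target, rose from 6.0 and 5.3 to 35.3 and 47.3, against 108 and 89.4 at 24 h. Nqo1 was measured here only through its 7 d level. Of 24 cytosolic heat shock genes 4 rose and 4 fell, with 2 rising without the first 96 h or the second 7 d library, 7 rising without the first 7 d library and 2 falling without the second 96 h library. These shares stand beside 21.0% of all tested genes that rose and 15.5% that fell. Cryab, αB-crystallin, read 2302 and 1633 at 96 h against 6154 and 9606 at 7 d, a log2 change of 1.99 (SE 0.24, adjusted p = 2.1e-05), and Hsp90ab1 changed by -0.01, adjusted p = 0.97. Of 39 lysosome and autophagy genes 13 rose and 5 fell, with 6 rising without the second 96 h library, 9 falling without the first 7 d library and 3 falling without any other of the 4. Npc2, a lysosomal sterol carrier, read 3542 and 3481 at 96 h against 5465 and 6145 at 7 d, a log2 change of 0.72 (SE 0.09, adjusted p = 2e-05), and Gaa, the lysosomal α-glucosidase, 6443 and 6091 at 96 h against 4001 and 2932 at 7 d, a log2 change of -0.87 (SE 0.13, adjusted p = 0.000167).

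Immediate-early genes, the usual readout of JNK and ERK signals, included 0 of 32 that rose and 6 that fell, with 3 falling without the first and 2 without the second 7 d library. Among all tested genes 21.0% rose and 15.5% fell. Jun, the target of JNK, read 2203 and 3138 at 96 h against 2349.7 and 2700.2 at 7 d (-0.06, adjusted p = 0.782). The JNK genes themselves did not pass, with -0.05, adjusted p = 0.805 for Mapk8 and 0.19, adjusted p = 0.0675 for Mapk9. Myc, a growth factor-responsive transcription factor, read 12816 and 14422 at 96 h against 9511 and 6586 at 7 d, a log2 change of -0.78 (SE 0.15, adjusted p = 0.000789), or a change of -0.52, adjusted p = 0.0226 without the second 7 d library. Egr1 read 3972 and 302 at 96 h against 152 and 234 at 7 d (-2.53, adjusted p = 0.188) and Fos 1539 and 345 at 96 h against 177 and 182 at 7 d (-2.02, adjusted p = 0.0693). Their 96 h replicates differed by more than 4-fold, and neither passed, although Fos did without the second 96 h library (-3.09, adjusted p = 0.0287). Dusp6, a phosphatase induced by ERK, changed by -1.01, adjusted p = 0.0361 and missed the threshold without the first 96 h library or either 7 d library.

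Of 12 EGF-type ligands and ErbB receptors 0 rose and 3 fell. The list counts in this paragraph stand beside 21.0% of all tested genes that rose and 15.5% that fell. Erbb2 read 2887 and 2791 at 96 h against 1700 and 1734 at 7 d, a log2 change of -0.73 (SE 0.07, adjusted p = 2.81e-06), while Egfr changed by -0.01, adjusted p = 0.963. The other two were Areg, amphiregulin (-0.82, adjusted p = 0.00519), which changed by -0.49, adjusted p = 0.119 without the second 7 d library, and the receptor inhibitor Errfi1 (-0.48, adjusted p = 0.016), which missed the threshold without the first library of either time. Of 13 measured Wnt genes 6 rose and 2 fell, with 1 falling without the second library of either time. Wnt4 read 1028 and 908 at 96 h against 1777 and 1789.8 at 7 d, a log2 change of 0.88 (SE 0.14, adjusted p = 0.000226) and Wnt7b 16359.7 and 17653 at 96 h against 10308 and 10815 at 7 d, a log2 change of -0.69 (SE 0.11, adjusted p = 0.000175). Of 14 Notch genes 2 rose and 3 fell, with 0 rising without the second 96 h library and 1 without the first 96 h or the second 7 d library. Notch1 rose by 1.12, or 0.90, adjusted p = 0.0516 without the second 96 h library, and its ligand Jag1 read 38396 and 47371 at 96 h against 30062 and 20323 at 7 d, a log2 change of -0.79 (SE 0.17, adjusted p = 0.00186), with a change of -0.50, adjusted p = 0.0497 without the second 7 d library. Of 26 YAP and TEAD targets 3 rose and 6 fell, and 1 or 2 rose when any library was left out. Among the 25 YAP and TEAD targets with a mean of at least 10 at both times 2 rose and 6 fell. Ankrd1 and Ctgf, which YAP drives, changed by 0.01, adjusted p = 0.964 and -0.08, adjusted p = 0.711.

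Of 66 small nucleolar and Cajal body RNAs, a group chosen after its values were seen, 0 passed as higher and 29 as lower, 65 were negative and the median was -1.06. Snord100 read 109.8 and 72.7 at 96 h against 32.0 and 20.3 at 7 d, a log2 change of -1.77 (SE 0.38, adjusted p = 0.00198), Snora3 80.3 and 73.6 at 96 h against 25.2 and 25.7 at 7 d, a log2 change of -1.56 (SE 0.28, adjusted p = 0.000569) and Snord65 52.9 and 47.9 at 96 h against 15.1 and 18.9 at 7 d, a log2 change of -1.52 (SE 0.34, adjusted p = 0.00262). Snord87 changed by -1.54, adjusted p = 0.00418, and by -1.24, adjusted p = 0.051 without the first 96 h library. These RNAs guide chemical modification of ribosomal RNA, sit inside introns of other genes, and share reads with their hosts if counting did not separate them. Their median change was 0.98 from 24 h to 96 h and -0.46 at the late step of the JNKi arm. Of 25 measured replication-dependent histone genes, whose RNAs lack a poly(A) tail, 11 rose and 0 fell, with 7 rising without the first 96 h or the second 7 d library. Among the 16 that did not enter through their 7 d level alone 6 rose and 0 fell, and near-identical copies make single histone genes uncertain. Among 7 other RNAs without such a tail 1, the nuclear RNA Malat1, passed as lower (-0.50, adjusted p = 0.0425), and it did not pass when any 1 of the 4 libraries was left out. Neat1 read 41949 and 50124 at 96 h against 23943 and 21996 at 7 d (-0.999, adjusted p = 0.144).

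Many genes turned back towards their 24 h level. A gene was counted as returned when it passed the late test, had changed by at least 1 in the opposite direction from 24 h to 96 h with an adjusted p under 0.05 (63.3% of tested genes passed that contrast), and ended nearer to 24 h. Of 4930 called members 1137 returned, 798 by rising and 339 by falling, while 240 went on rising and 14 went on falling. The 24 h to 96 h difference shares the 96 h libraries with the late step, so a deviation in them enters both and the count has no test. Between adjacent vehicle times, 28 genes were higher and 8 lower at 72 h against 48 h, and 2199 and 2886 at 96 h against 72 h. The 48 h and 72 h levels do not enter the count. The part of a shift confined to the 96 h libraries was not tested. Without the second 7 d library 448 and 136 returned, and 213 returned by falling without the second 96 h library. The median gene that returned by rising made up 49.97% of its earlier fall, and the median gene that returned by falling lost 44.1% of its earlier rise. The 7 d mean of 70 returned genes lay beyond that of 24 h.

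Returned genes that rose included 47 of 51 mitosis genes, 30 of 51 replication genes and 17 of 24 cholesterol genes. Serpinb8, a protease inhibitor, read 50.6 and 53.3 at 24 h, 10.7 and 9.8 at 96 h against 92.6 and 98.0 at 7 d. Mxd3, a MYC antagonist of S phase, read 350 and 500.2 at 24 h, 12.7 and 13.3 at 96 h against 72.4 and 147 at 7 d. Gpbar1, a bile acid receptor, read 170.1 and 149.9 at 24 h, 29.5 and 23.9 at 96 h against 139.7 and 219.7 at 7 d. Serpinb8 ended above its 24 h values, Gpbar1 among them and Mxd3 below. Aldh3a1, an aldehyde dehydrogenase, Hrct1 and Camk2b, a calmodulin-dependent kinase, also returned by rising, with changes of 2.67, 2.67 and 2.61. Among those that returned by falling were Ivl, Chka, Padi1 and 12 of the 47 ATF4 genes. Slc25a27, a mitochondrial carrier, read 136 and 114 at 24 h, 461 and 479.7 at 96 h against 195 and 170.3 at 7 d, and Fam129c 73.1 and 69.2, 319 and 428 at 96 h against 121 and 162 at 7 d. Tmc4 fell by 1.34 and missed the threshold without the second 96 h library (-1.28, adjusted p = 0.0673) or the first 7 d library (-1.21, adjusted p = 0.0654).

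Genes that went on rising included 9 of the 26 contractile genes, among them Acta2, Actg2 and Lmod1, together with Prnd. The 14 that went on falling included Tle6 with 254 and 222 at 24 h, 111 and 119 at 96 h against 43.8 and 32.4 at 7 d. Sema6a, a semaphorin, fell by 0.77, Nlrc4, an inflammasome sensor, by 0.76, Timd2 by 0.92 and Atp7b, a copper transporter, by 0.74. None of these 4 passed without the first 96 h library, with adjusted p values of 0.0555, 0.0545, 0.163 and 0.255.

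**Figure D4:**
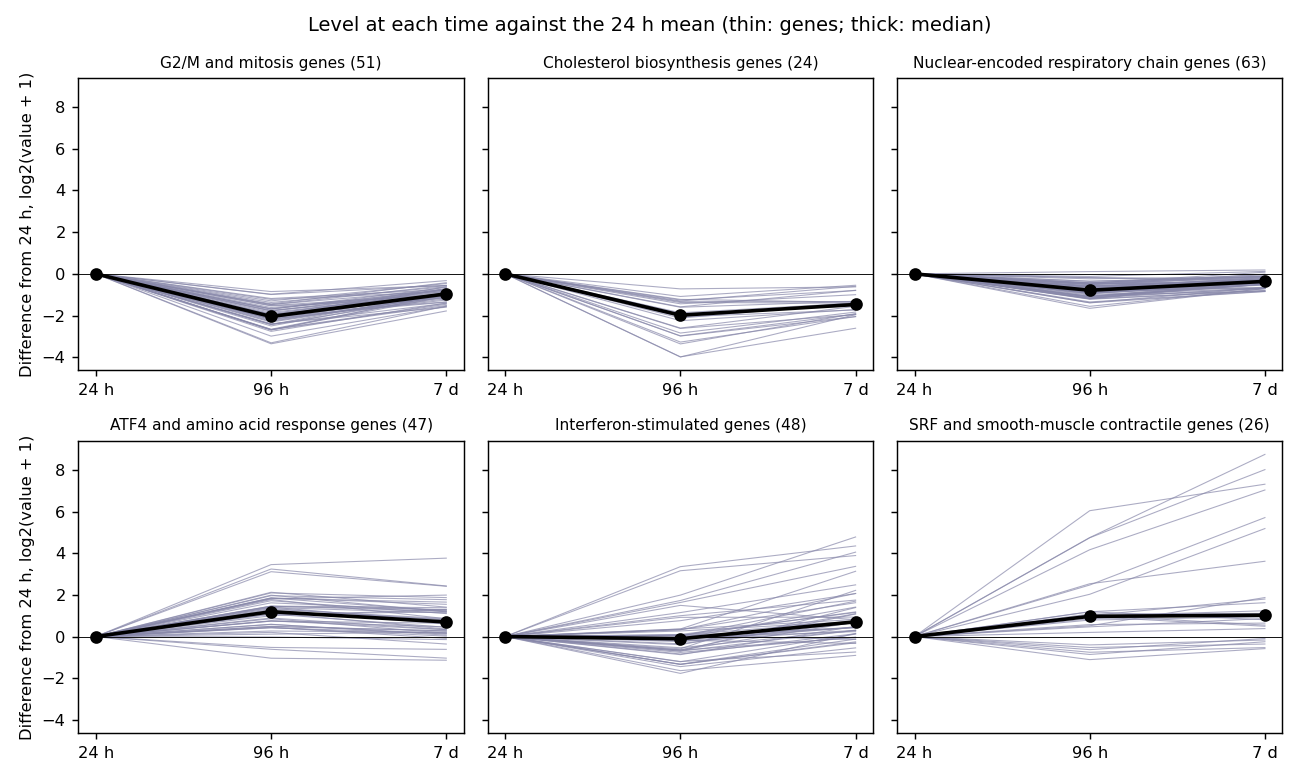
Level of each measured member (thin lines) and the median (thick line) of 6 gene lists at 24 h, 96 h and 7 d in DMSO cells, as the difference from the 24 h mean on the log2(value + 1) scale. Mitosis, cholesterol and respiratory chain genes have their lowest median at 96 h and a median below 0 at 7 d, ATF4 genes peak at 96 h, and single contractile genes climb past 8 at 7 d.

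The late step was set against the same step under JNK inhibition, which shares no library with it. Deviations of the same-numbered 96 h libraries of both arms from their group means correlated at 0.53 over 9605 genes. Such shared deviations enter both steps, and their part in the likeness of the steps was not tested. In the JNKi arm 23.2% of tested genes were higher and 16.6% lower. Across the 13078 members the changes of both arms had a Pearson correlation of 0.82 and a Spearman correlation of 0.77, given as a description across genes, which are not independent. Of the 4930 members called in DMSO cells 95.3% had a change of the same sign in JNKi cells. The difference between the steps passed the test for 11 genes, 0.0792% of those tested, and 1548 had an unadjusted p under 0.05. Single libraries decide this count. It was 0 without either JNKi 7 d library or the first JNKi 96 h library, and 1 without the second JNKi 96 h library or the first library of either DMSO time. The counts of positive and negative differences, as the DMSO change minus the JNKi change, were 12 and 16 without the second DMSO 96 h library and 18 and 34 without the second DMSO 7 d library, and 60 and 72 by DESeq2 on recovered reads.

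Of these 11 genes 6 had a positive difference, the DMSO change minus the JNKi change. Gpbar1 rose in DMSO cells as given above and read 39.8 and 32.5 at 96 h and 38.8 and 38.5 at 7 d in JNKi cells, a difference between the steps of 2.58 (SE 0.34, adjusted p = 0.0118). Mcam, an adhesion molecule of smooth muscle and endothelium, read 1934 and 2291 at 96 h against 5984 and 5762 at 7 d, a log2 change of 1.48 (SE 0.14, adjusted p = 2.34e-06), and 1646 and 1429 and then 1891 and 1811 in JNKi cells. Slc41a3, a magnesium transporter, read 429 and 497 at 96 h against 1165 and 827 at 7 d with DMSO, and 462 and 473 and then 385 and 432 with JNKi. Enah, an actin filament elongation factor, and Txndc5, a disulfide isomerase, did not pass in DMSO cells (0.19 and 0.15) and fell in JNKi cells by 0.56 and 0.43.

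The other five had a negative difference. Alcam, an adhesion molecule, read 609 and 434 at 96 h against 358 and 387 at 7 d with DMSO (-0.46, adjusted p = 0.0095), and 589.8 and 514 and then 835 and 933 with JNKi. Its fall in DMSO cells did not pass without the first 96 h library (-0.22, adjusted p = 0.189) or the first 7 d library (-0.41, adjusted p = 0.0564), and was -0.71, adjusted p = 0.000883 without the second 96 h library. Spire2, an actin nucleator, and Ank, a pyrophosphate transporter, fell in DMSO cells by 0.65 and 0.39 and rose in JNKi cells by 0.37 and 0.38. Amot, a junctional regulator of YAP, and Ugdh, which makes the precursor of hyaluronan, changed by 0.09 and 0.02 in DMSO cells, where neither passed, and rose by 0.87 and 0.77 in JNKi cells.

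**Figure D5:**
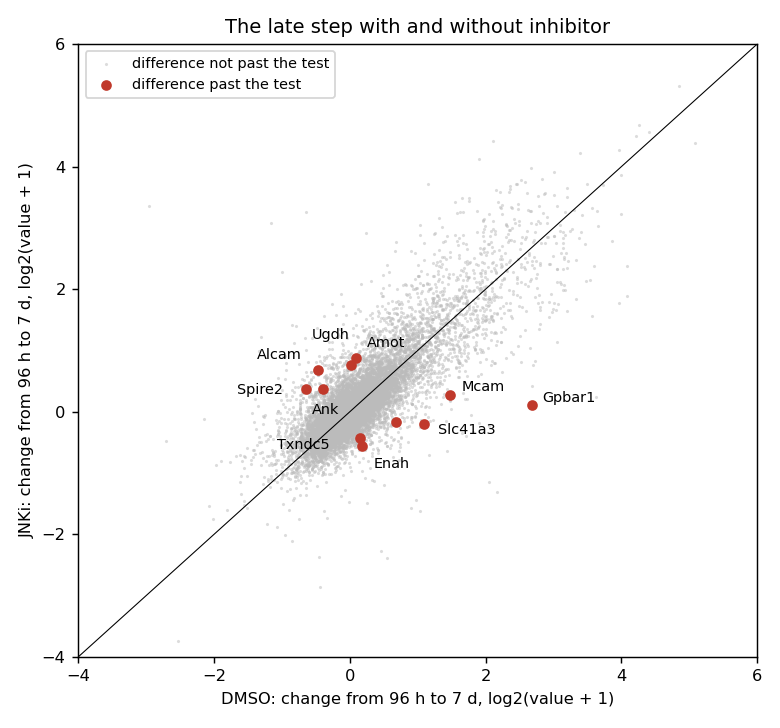
Change of each member from 96 h to 7 d in DMSO cells (x) and JNKi cells (y), both on the log2(value + 1) scale, with the line of equal change. The 11 red genes are those whose difference between the arms passed the test, and Gpbar1 lies farthest from the line among those with a label.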

How the data were processed

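For the 20 DMSO and JNKi libraries the authors deposited 1 table of 20261 genes, whose signal is the normalized read count to 1 decimal. Per the submitters' processing notes, TopHat, HTSeq, DESeq and build mm9 were used, without versions. Whether counting used strand, and how reads that fit several genes were treated, is not given in the sources used here. Values of overlapping or antisense genes are uncertain for the first reason and those of close copies for the second. The 15 samples of a TGF-β time course were not analysed here. Each library's values were whole multiples of 1 step (100% within 0.1 of a whole number), which gave recovered reads and depth.

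The log2 of the value plus 1 was fitted by limma (version 3.58.1, under R 4.3.3) to all 20 libraries, 1 mean per group and an intensity trend, for the 13896 genes whose mean reached 10 in any of the 10 groups. Tests were two-sided, with Benjamini-Hochberg adjustment and 0.05 as threshold. The fit was tested on simulated data. Alternatives included edgeR 4.0.16 and DESeq2 1.42.0 on recovered reads, other scalings, filters, pseudocounts, single libraries left out, a replicate block and transcript lengths (GENCODE M21, 98.9% of members).

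Members and the 43 gene lists were chosen with earlier results of these data known. Named genes came from the 12 largest changes each way (mean of at least 50, no overlap of replicates), in each list the 2 largest called changes and the 2 highest means, the 8 largest returned and 5 largest continuing genes each way, up to 6 each way with a different JNKi step, and 16 fixed genes. Other genes named were chosen after their values were seen. Some genes that these rules pick are not reported here. Promoters came from RefSeq (GRCm38.p6), and no coordinates of the authors' build are used.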

Additional observations from a re-analysis of the deposited data

Results flagged for a closer look

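The step from 96 h to 7 d differed between DMSO and JNKi cells for 11 genes by a test of the difference itself (limma, adjusted p under 0.05). Values are given for 10 of them. The DMSO change minus the JNKi change, on the log2(value + 1) scale, was 2.58 for Gpbar1, 1.28 for Slc41a3, 1.21 for Mcam, 0.75 for Enah and 0.57 for Txndc5. It was -1.14 for Alcam, -1.02 for Spire2, -0.78 for Amot, -0.77 for Ank and -0.74 for Ugdh. With single libraries left out, positive differences numbered 0 to 18 and negative ones 0 to 34.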

How the results depend on the processing

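With 2 libraries per group, the 16652275 reads of the first 7 d library limit low genes. Of 162 named genes past the test, 127 stayed past it in every setting that kept all 4 libraries and 103 in all 22 settings, and 0 reversed. The counts of 2782 higher and 2148 lower genes ranged from 1480 to 2506 and from 1072 to 2052 with 1 library left out, and were 939 and 74 with a log2 change of at least 1. DESeq2 gave 2640 and 2307 and edgeR 2989 and 2273. With a replicate block they were 2897 and 2263, with 1 named call lost. The labels do not say whether replicate numbers pair the 96 h and 7 d groups. Deviations of same-numbered libraries correlated at -0.22 (JNKi arm -0.11, between arms 0.53 at 96 h and 0.07 at 7 d), which cannot decide this. Within the 4 libraries the block gave 2438 and 1617 and the crossed block, added later, 2849 and 2181. Genes that returned ranged from 448 to 870 (rose) and 136 to 378 (fell) with 1 library left out, were 1401 and 953 with an earlier difference of at least 0.5, and 210 and 35 with at least 2.

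For the difference between the DMSO and JNKi steps, the counts of 6 positive and 5 negative differences ranged from 0 to 18 and from 0 to 34 with 1 library left out. The positive count was 12 without a filter, 1 without an intensity trend, 13 in the 8 libraries of 96 h and 7 d, 60 with DESeq2, 12 with voom and 3 with a difference of at least 1. The negative count was 23 with a pseudocount of 8, 38 without a filter, 10 with a mean of at least 50, 9 with the filter on DMSO groups only, 11 with upper quartile scaling, 1 without a trend, 9 with robust variances, 14 with a replicate block, 2 in the 8 libraries, 10 with edgeR, 72 with DESeq2, 15 with voom, 15 after length correction and 2 with a difference of at least 1. The cause was not tested.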
